A study of Mus musculus with 62 samples.

Results

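The 10 core circadian clock genes, Dbp, Per1, Per2, Per3, Nr1d1, Nr1d2, Ciart, Arntl, Npas2 and Cry1, were followed across hippocampus and embryonic forebrain RNA-seq libraries, as 10 of the 27179 genes in the deposited tables. They were found by symbol. The set was chosen by measured values, namely how the levels rose and fell together across the adult libraries and how they differed between genotypes in males and in females, so those adult values are given as a description and support nothing by themselves. The values from the embryos had no part in that choice.

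Poly(A) RNA was sequenced from whole hippocampus of 6-week-old mice and from forebrain of E17.5 embryos, all on a mixed DBA/2J x B6EiC3Sn/J background. Ts65Dn mice carry an extra copy of part of chromosome 16 and of the proximal end of chromosome 17, which includes genes with no counterpart on human chromosome 21, and are a model of Down syndrome. The adult groups were euploid (8 males, 8 females), Ts65Dn (7 males, 8 females) and Ts65Dn;Brwd1+/- (8 males, 8 females), the last being trisomic animals in which the germline mutant allele Brwd1 repro5, from heterozygous fathers, returns Brwd1, a gene for a bromodomain protein, to its usual number of functional copies. The 15 embryos were 8 euploid and 7 Ts65Dn, with no sex in the labels. The trisomic animals carried the extra segment in every cell type, and euploid animals with the Brwd1 mutation were not analysed here. The mice were kept under a light/dark cycle, and the hour at which each brain was taken is not given in the sources used here.

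In mammalian cells, ARNTL (also called BMAL1) pairs with CLOCK, or in forebrain with its relative NPAS2, and switches on genes that carry E-boxes, among them Per1, Per2, Per3, Cry1, Nr1d1, Nr1d2, Ciart and Dbp. The PER and CRY proteins then repress that pair, CIART adds to the repression, and the nuclear receptors NR1D1 and NR1D2 (REV-ERB alpha and beta) switch off Arntl and Npas2. DBP is an output factor that acts on D-boxes. In rhythmic tissue most of these E-box targets, though not all, therefore peak at a time of day roughly opposite to that of Arntl. The clock of embryonic brain is immature.

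The stretches upstream of 4 of the genes are shown because they hold the letters through which members are known to be linked. Windows of 250 bases before RefSeq starts (GRCm38.p6, which is mm10) were given for 9 of the 10 genes, 11 windows in all, and none for Per2. A start used here need not be the outer end of the annotated gene. Each window was searched on both strands for the E-box (CACGTG), a variant E-box (CACGTT), the D-box (TTATGTAA or TTACGTAA) and the core of the element bound by REV-ERB and ROR (TAGGTCA). Below, capitals mark a match, read 5′ to 3′ on the strand of the gene (AACGTG is CACGTT on the other strand), and bases that lie inside the annotated gene are left out. The stretches are chr3:95882258-95882478, minus strand for Ciart, chr10:85185055-85185304, minus strand for Cry1, chr11:98775378-98775627, minus strand for Nr1d1 and chr4:151044708-151044915, minus strand for Per3, all intergenic with respect to their own gene.
Ciart: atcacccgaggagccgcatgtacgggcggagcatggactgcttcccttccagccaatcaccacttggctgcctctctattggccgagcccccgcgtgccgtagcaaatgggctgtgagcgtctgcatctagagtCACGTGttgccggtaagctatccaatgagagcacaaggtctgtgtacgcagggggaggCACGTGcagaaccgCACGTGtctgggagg
Cry1: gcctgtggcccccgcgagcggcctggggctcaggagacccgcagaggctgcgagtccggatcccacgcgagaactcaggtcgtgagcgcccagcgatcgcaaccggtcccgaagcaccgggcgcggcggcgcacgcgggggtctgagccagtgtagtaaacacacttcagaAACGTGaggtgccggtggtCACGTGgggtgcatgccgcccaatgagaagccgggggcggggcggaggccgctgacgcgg
Nr1d1: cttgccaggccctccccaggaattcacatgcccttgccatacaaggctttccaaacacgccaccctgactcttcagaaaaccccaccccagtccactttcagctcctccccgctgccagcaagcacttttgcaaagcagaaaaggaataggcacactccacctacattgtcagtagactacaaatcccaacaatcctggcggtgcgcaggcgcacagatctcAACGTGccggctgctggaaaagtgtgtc
Per3: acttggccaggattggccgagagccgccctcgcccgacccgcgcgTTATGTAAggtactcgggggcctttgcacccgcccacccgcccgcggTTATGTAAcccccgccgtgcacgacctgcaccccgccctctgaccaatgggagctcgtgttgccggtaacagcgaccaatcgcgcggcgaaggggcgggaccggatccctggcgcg

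Ciart held 3 E-boxes in this window, Cry1 had 1 E-box and 1 variant E-box, Nr1d1 1 variant E-box and Per3 2 D-boxes. In 1 of its 2 windows Per1 had 1 E-box as well, so that 3 of the 9 genes held an E-box there. Counted by window, these were 3 of 11 member windows, against 6.02% of 32817 windows of all genes. The variant E-box lay in 2 of the 11 member windows and in 3.85% of all windows, and the D-box in 1 and in 0.929%. The REV-ERB and ROR core lay in 0 member windows and in 2.24% of all. Dbp, Arntl, Npas2 and Nr1d2 had none of the 4 motifs in these windows, which says nothing of sites elsewhere in those genes.

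Levels are given as log2 CPM (CPM are counts scaled to the size of the library, here by edgeR with TMM normalization and a prior count of 0.5) or, where genes are compared with each other, as RPKM, which also divides by the length of its exons. Libraries held from 14863136 to 137059172 counted reads. Of the 47 adult libraries, 6 went against a label. Ts65Dn male B145, Ts65Dn;Brwd1+/- males B138 and T35 and Ts65Dn;Brwd1+/- female B136 lacked the raised dosage of the triplicated genes. Ts65Dn male B88 and euploid female B85 had Xist and Ddx3y levels of the other sex. Results below are given with and without them where they matter. The sources used here do not say how animals were spread over litters, and p-values measure the spread between these libraries.

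Per length, Nr1d1 was the most abundant of the 10 in adult hippocampus, with an RPKM of 64.9 to 98.9 (median 77.6) over 47 libraries. Per1 (median RPKM 24.6) and Dbp (21.1) came next, then Nr1d2, Per2 (6.56), Npas2 (5.82), Per3 (4.55), Arntl (4.22), Cry1 (3.79) and Ciart (3.33). The range of Nr1d1 lay above that of Per1 (17.7 to 41.2), and from Per1 downwards the ranges of all neighbours in this order overlapped. In E17.5 forebrain Nr1d1 was again the highest (median RPKM 37.3), followed by Per1 (11.2) and Cry1 (10.4), whereas Dbp had a median RPKM of 2.02, Npas2 of 0.905, Per3 of 0.771 and Ciart of 0.729. Median RPKM was higher in adult hippocampus than in the embryos for 9 of the 10 genes, by 10.4-fold for Dbp, 6.43-fold for Npas2, 5.9-fold for Per3 and 1.46-fold for Arntl. Cry1 went the other way, with an adult median at 0.364 of the embryonic one. Age, tissue and the normalization of separate tables cannot be told apart here, and fewer cells that express a gene cannot be told apart from less RNA per cell.

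**Figure D1:**
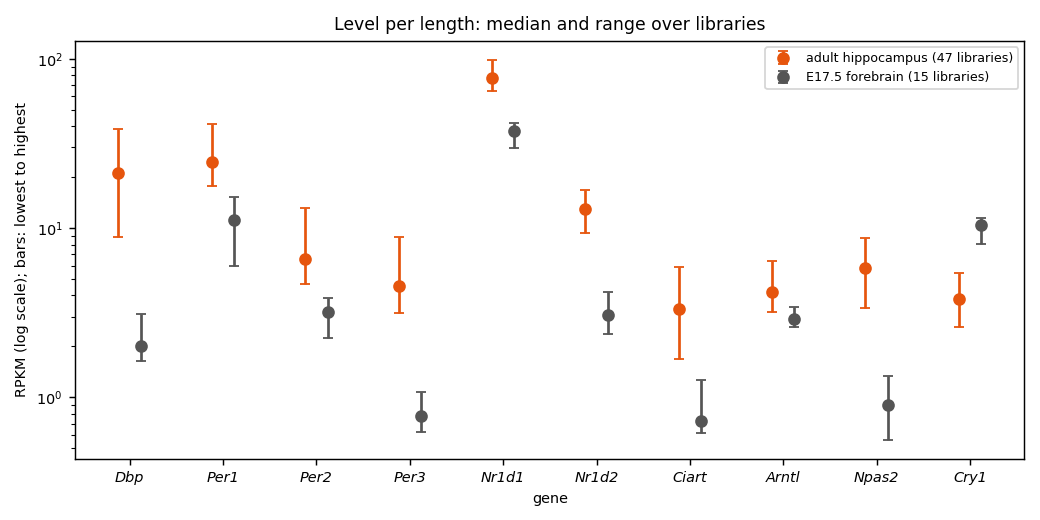
Level per length of the 10 genes: RPKM on a log axis, points for the median and bars from the lowest to the highest library, in 47 adult hippocampus libraries (orange) and 15 E17.5 forebrain libraries (grey). The adult range lies above the embryonic one for 8 genes and below it for Cry1, and the ranges of Arntl overlap.

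In the embryos, where the comparison is independent of how the genes were chosen, no clock gene passed the test between Ts65Dn and euploid forebrain. None of the 10 had an adjusted p under 0.1 in edgeR, against 1.35% of 16395 genes, and 1 of them had an unadjusted p under 0.05. DESeq2 with its own size factors likewise called 0 of 10. Dbp lay between 2.39 and 3.22 log2 CPM (median 2.61) in 8 euploid embryos and between 2.29 and 2.98 (median 2.58) in 7 Ts65Dn embryos, so the groups overlapped from 2.39 to 2.98. Its log2 fold change was -0.06 (SE 0.13, adjusted p = 0.865).

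Nr1d1, the repressor of Arntl, came nearest to the threshold. It ranged from 6.78 to 7.02 log2 CPM (median 6.90) in euploid and from 6.51 to 6.95 (median 6.76) in Ts65Dn embryos. Of the 7 Ts65Dn embryos, 5 lay below every euploid one and 1 above the euploid median. The log2 fold change of Nr1d1 was -0.17 (SE 0.06, adjusted p = 0.299), and with 3 RUVr factors, which remove unwanted variation estimated from the residuals, its adjusted p was 0.0189 in edgeR and 0.00683 in DESeq2, in fits that also called far more of the other genes. Arntl spanned 4.29 to 4.68 log2 CPM in euploid and 4.4 to 4.58 in Ts65Dn embryos, and its log2 fold change was 0.065 (SE 0.064, adjusted p = 0.66). The other 7 had log2 fold changes from -0.13 to 0.18, with adjusted p-values of 0.512 to 0.969. The summed level of 10 forebrain markers was 1633 to 3249 CPM in euploid and 421.1 to 2531 CPM in Ts65Dn embryos, and all 12 choroid plexus markers had higher values in Ts65Dn embryos (1 called). The part of these in the values above was not tested.

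In adult males no clock gene passed the test between any pair of the 3 genotypes. Dbp ranged from 5.52 to 6.49 log2 CPM (median 5.85) in euploid males, from 5.43 to 6.42 (median 5.67) in Ts65Dn males and from 5.47 to 6.4 (median 5.88) in Ts65Dn;Brwd1+/- males. These ranges coincided almost entirely. Arntl, the activator, ranged from 4.84 to 5.36 log2 CPM in euploid, 4.74 to 5.59 in Ts65Dn and 4.75 to 5.26 in Ts65Dn;Brwd1+/- males. None of the 10 was called in Ts65Dn vs euploid (0.795% of 16851 genes called), in Ts65Dn;Brwd1+/- vs Ts65Dn (0% called, with 1261 genes at an unadjusted p under 0.05 and 1 gene called by DESeq2) or in Ts65Dn;Brwd1+/- vs euploid (0.576% called). No member had an unadjusted p under 0.05 in any of these 3 contrasts. Without males B145, B88, B138 and T35, which went against a label, edgeR again called no member. The smallest adjusted p-values were then 0.705, 0.747 and 0.667 in the same order. Over the alternative fits, single-library omissions aside, Ts65Dn vs euploid males ran from -0.08 to 0.067 for Dbp and from 0.051 to 0.258 for Ciart. Log2 fold changes of the members lay between -0.20 and 0.12 in the first, between -0.155 and 0.12 in the second and between -0.10 and 0.23 in the third. Npas2 had the lowest value in Ts65Dn vs euploid males, -0.20 (SE 0.13, adjusted p = 0.71), and with 3 RUVr factors its adjusted p was 0.0761 in edgeR and 0.0307 in DESeq2.

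**Figure D2:**
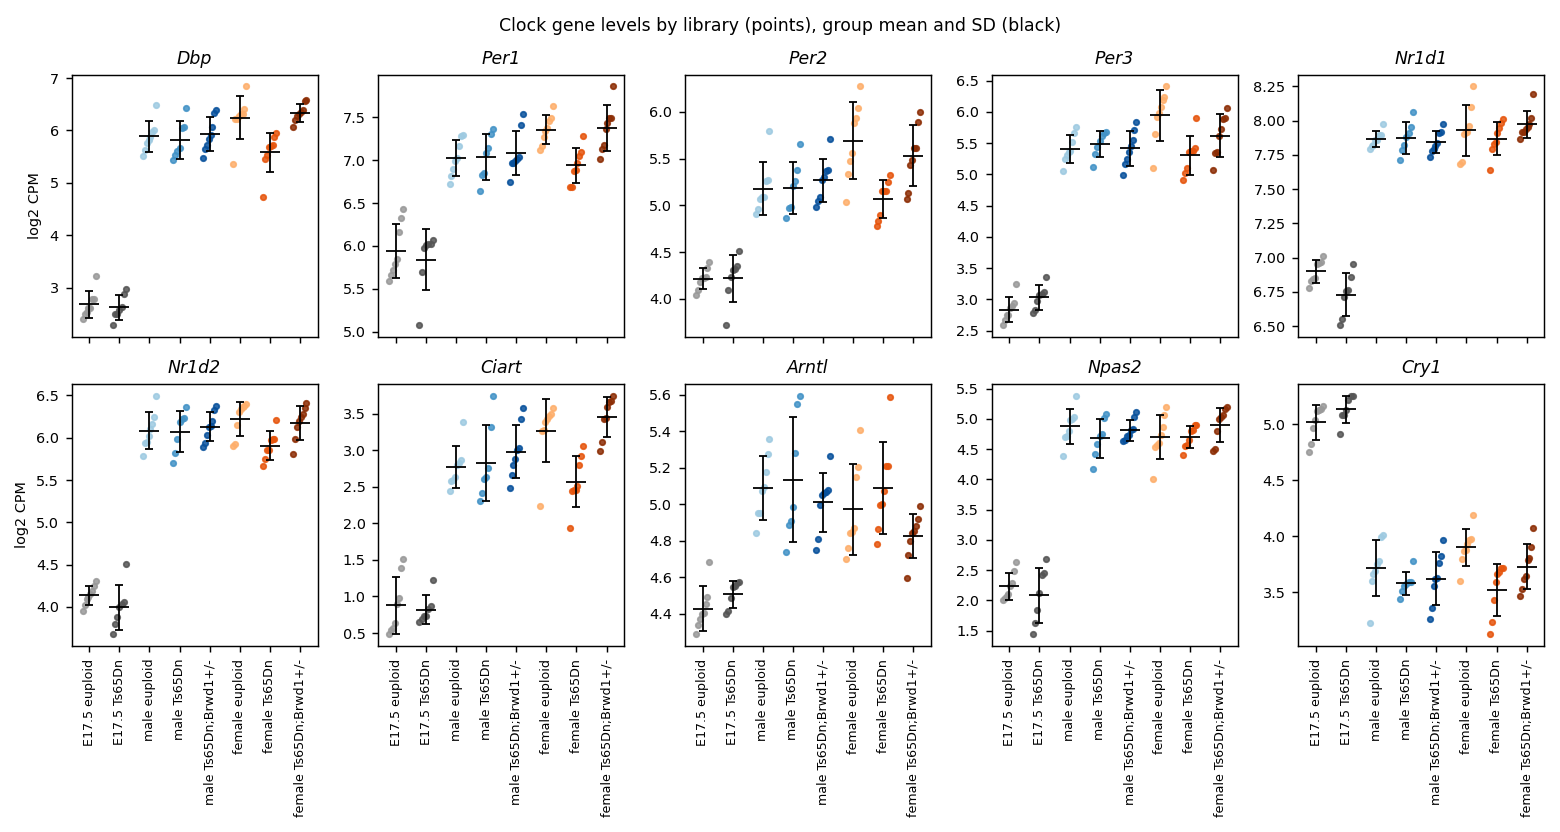
Level of each clock gene in log2 CPM (vertical axis, a separate scale for each gene) by group (horizontal axis); points are libraries, black bars the group mean and SD. The 3 male groups lie at like levels. For Dbp, Per1, Per2, Per3, Nr1d2 and Ciart the mean of the Ts65Dn females lies below those of the other female groups and nearer those of the males. The embryos lie below all adults except for Cry1 and, at its upper end, Arntl. Adult and embryonic libraries were normalized separately.

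In females, Ts65Dn hippocampus had lower RNA levels of 7 of the 10 genes than euploid hippocampus (adjusted p under 0.1), and none was higher. Over all 17146 genes the share called was 3.17%. Since the genes were chosen with this contrast in view, the count is a description. Each of the 8 Ts65Dn females lay below the euploid median for all 7 of these genes. The 7 had already been called lower in the same libraries, so this adds no separate support. The share of all genes with that separation was not counted.

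Dbp, the output factor, ranged from 5.36 to 6.84 log2 CPM (median 6.30) in euploid females and from 4.73 to 5.95 (median 5.69) in Ts65Dn females. The overlap came from euploid female B85, the lowest of its group, since the next euploid library lay at 6.21, above every Ts65Dn female. The log2 fold change was -0.68 (SE 0.15, adjusted p = 0.023), and without B85 it was -0.76 (SE 0.13, adjusted p = 0.00201). Ciart, the repressor most like Dbp, ranged from 2.23 to 3.58 log2 CPM (median 3.41) in euploid and from 1.93 to 3.06 (median 2.49) in Ts65Dn females. B85 was again the lowest euploid library, and the next lay at 3.26. Its log2 fold change was -0.71 (SE 0.16, adjusted p = 0.0243).

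The 3 Period genes, which encode the repressors that pair with CRY proteins, were all lower in Ts65Dn females. Per1 ranged from 7.12 to 7.63 log2 CPM (median 7.36) in euploid and from 6.69 to 7.28 (median 6.92) in Ts65Dn females. Here 7 of the 8 Ts65Dn libraries lay below every euploid one. Its log2 fold change was -0.42 (SE 0.10, adjusted p = 0.0383). Per2 ranged from 5.03 to 6.27 log2 CPM (median 5.72) in euploid and from 4.78 to 5.33 (median 5.16) in Ts65Dn females, a log2 fold change of -0.66 (SE 0.15, adjusted p = 0.0243). Per3 ranged from 5.10 to 6.41 log2 CPM (median 6.03) in euploid and from 4.92 to 5.91 (median 5.37) in Ts65Dn females, a log2 fold change of -0.66 (SE 0.16, adjusted p = 0.0375). The lowest euploid library for Per2 and Per3 was B125, the same animal that was highest of its group for Dbp, Nr1d1 and Ciart.

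Cry1, the partner of the PER proteins, ranged from 3.60 to 4.19 log2 CPM (median 3.90) in euploid and from 3.12 to 3.72 (median 3.63) in Ts65Dn females. Its log2 fold change was -0.38 (SE 0.10, adjusted p = 0.0503). Nr1d2 ranged from 5.91 to 6.39 log2 CPM (median 6.32) in euploid and from 5.67 to 6.21 (median 5.91) in Ts65Dn females, a log2 fold change of -0.32 (SE 0.09, adjusted p = 0.0654). Its paralogue Nr1d1 did not pass the test, with 7.68 to 8.25 log2 CPM in euploid and 7.64 to 8.01 in Ts65Dn females and a log2 fold change of -0.07 (SE 0.07, adjusted p = 0.698). The activators did not pass it either. Arntl had a log2 fold change of 0.11 (SE 0.11, adjusted p = 0.68) and Npas2 of -0.04 (SE 0.13, adjusted p = 0.942).

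Leaving out single libraries kept Dbp, Per2, Per3 and Ciart past the threshold each time. The call of Nr1d2 was lost, with adjusted p-values of 0.108 to 0.147, without euploid B17, B21 or B65 or without Ts65Dn B103, B134, T141 or T142. The call of Cry1 was lost without euploid B85 (adjusted p = 0.122) or Ts65Dn B103 (0.109) or B134 (0.116), and that of Per1 without euploid B65 (0.101). Animal identifiers began with T in 3 of the 8 Ts65Dn females and in 0 of the 8 euploid females, and what the letter stands for is not given. Among identifiers that began with B, the mean difference (5 Ts65Dn minus 8 euploid) was -0.50 log2 CPM for Dbp, -0.60 for Per2, -0.60 for Per3, -0.52 for Ciart and -0.38 for Per1.

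Ts65Dn;Brwd1+/- females had higher values than Ts65Dn females for 9 of the 10 genes and a lower value for Arntl, but edgeR called none of the 10 and none of the 17146 genes (0%, with 604 genes at an unadjusted p under 0.05, 7 members among them). All 12 immediate early genes, described further on, also had higher values here. This contrast shares its Ts65Dn libraries with the previous one, so a low value there appears as a high one here. The T identifiers again fell on 1 side, with 3 among Ts65Dn females and 0 among Ts65Dn;Brwd1+/- females. Among B identifiers the mean difference (8 Ts65Dn;Brwd1+/- minus 5 Ts65Dn) was 0.60 log2 CPM for Dbp and 0.70 for Ciart. It was 0.39 for Per1, 0.44 for Per2 and -0.16 for Arntl. Dbp ranged from 6.07 to 6.58 log2 CPM (median 6.33) in Ts65Dn;Brwd1+/- females, and all 8 lay above the highest Ts65Dn female, a separation not counted over all genes. Its log2 fold change was 0.74 (SE 0.15, adjusted p = 0.226). Ciart ranged from 2.98 to 3.74 log2 CPM (median 3.52) in Ts65Dn;Brwd1+/- females, with 7 of 8 above every Ts65Dn female. Its log2 fold change was 0.88 (SE 0.16, adjusted p = 0.139), the smallest p of all genes in this contrast. Per1 followed with 0.45 (SE 0.11, adjusted p = 0.442), Per2 with 0.48 (SE 0.15, adjusted p = 0.924) and Arntl with -0.27 (SE 0.11, adjusted p = 1).

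Whether members were called here depended on the fit. Without euploid female B85, which takes no direct part in the contrast but shares its dispersion estimate, Ciart had an adjusted p of 0.0112 and Dbp of 0.0527. Without B85 and B136, both of which went against a label, the adjusted p was 0.00272 for Ciart and 0.0371 for Dbp. DESeq2 called 3 members (Dbp, Per1 and Ciart) among 14 genes, and with 3 RUVr factors edgeR called 6 and DESeq2 7. Against euploid females, Ts65Dn;Brwd1+/- females had no member called (0.729% of genes called). Dbp differed by 0.06 (SE 0.15, adjusted p = 0.92) on the log2 scale and Per3 by -0.34 (SE 0.16, adjusted p = 0.442), the member farthest from 0. Without euploid B125 the value of Per3 was -0.43 (SE 0.15, adjusted p = 0.0999).

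**Figure D3:**
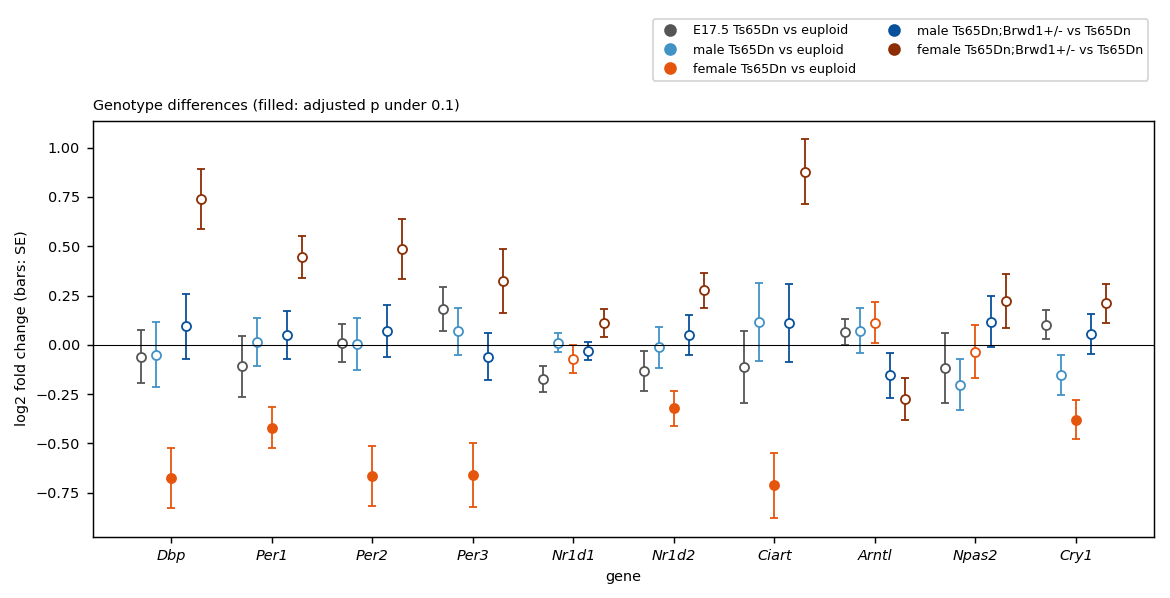
Log2 fold change (vertical axis, bars: SE) of the 10 genes (horizontal axis) in 5 genotype contrasts, with filled points for an adjusted p under 0.1. The 7 filled points all belong to Ts65Dn vs euploid females and lie below 0, and the male and E17.5 points lie between -0.20 and 0.18.

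The size of the genotype difference in males and females was compared directly in a fit of all 6 adult groups. For Ts65Dn vs euploid, the difference between the sexes (female minus male log2 fold change) was -0.83 (SE 0.26, adjusted p = 0.263) for Ciart, -0.72 (SE 0.21, adjusted p = 0.238) for Per3, -0.66 (SE 0.21, adjusted p = 0.263) for Per2 and -0.62 (SE 0.23, adjusted p = 0.315) for Dbp. None of the 10 members and none of the 17427 genes passed in edgeR (0%, with 1935 genes and 6 members at an unadjusted p under 0.05), whereas DESeq2 called 94 genes, Per3 among them (adjusted p = 0.0893). Without the libraries against a label, edgeR called no member (smallest adjusted p = 0.224). Over the alternative fits, single-library omissions aside, the difference ran from -1.072 to -0.786 for Ciart and from -0.832 to -0.586 for Dbp. For Ts65Dn;Brwd1+/- vs Ts65Dn, 0% of genes and no member were called, with 650 genes and 3 members at an unadjusted p under 0.05 and 1 gene called by DESeq2, and the values were 0.76 (SE 0.26, adjusted p = 1) for Ciart and 0.64 (SE 0.23, adjusted p = 1) for Dbp.

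Among the adult groups the mean of Dbp fell in the order Ts65Dn;Brwd1+/- females (6.34 ± 0.17 log2 CPM, SD, n = 8), euploid females (6.24 ± 0.41, n = 8), Ts65Dn;Brwd1+/- males (5.93 ± 0.33, n = 8), euploid males (5.89 ± 0.29, n = 8), Ts65Dn males (5.82 ± 0.36, n = 7) and Ts65Dn females (5.58 ± 0.38, n = 8). Each step between neighbours was smaller than the larger SD of the pair. For Per1 the mean was 6.94 log2 CPM in Ts65Dn females, 7.03 to 7.08 in the male groups, and 7.36 and 7.37 in euploid and Ts65Dn;Brwd1+/- females. For Per2 these means were 5.07, 5.18 to 5.27, and 5.69 and 5.53, and for Per3 5.31, 5.41 to 5.48, and 5.95 and 5.62. Ts65Dn females had no member called against Ts65Dn males (0.0287% of 17427 genes called), with a log2 fold change of -0.25 (SE 0.17, adjusted p = 1) for Dbp and no member at an unadjusted p under 0.05. Ciart had a value of -0.31 (SE 0.19). Without the libraries against a label, edgeR again called no member, but the values lay farther from 0. They were -0.36 (SE 0.16, adjusted p = 0.65) for Dbp and -0.45 (SE 0.19, adjusted p = 0.594) for Ciart.

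Within groups, the clock genes varied more than most genes of their level. The SD of Dbp around its group means was 0.332 on the log2 scale, larger than that of 96% of the 2346 genes within 0.5 log2 CPM of its level. This share was 93.9% for Per3 (SD 0.305), 92.4% for Per2 (0.296), 89.4% for Npas2 (0.277), 88.3% for Per1 (0.232), 86.4% for Ciart (0.377), 82.9% for Arntl (0.225), 81.2% for Nr1d2 (0.201) and 64.6% for Cry1 (0.206). Nr1d1, the most abundant, varied least, with an SD of 0.118, larger than that of 41.2% of its 809 neighbours in level. From the lowest to the highest adult library Dbp spanned 4.31-fold, Ciart 3.51-fold, Per2 2.82-fold and Nr1d1 1.52-fold.

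Much of that variation was shared between members and had a direction. Group means were subtracted, so the correlations below compare animals of the same sex and genotype, over 47 libraries whose points share the depth and normalization of a library. Dbp and Ciart rose and fell together (Pearson r = 0.87), as did Dbp and Nr1d1 (0.70) and Dbp and Nr1d2 (0.58). Dbp and Arntl moved in opposite directions (r = -0.68, Spearman -0.62), and so did Ciart and Arntl (-0.66). Ciart and Nr1d1 had a larger r with Dbp than any of the 13111 other genes compared, and Arntl a lower r than any of them. Since the members were chosen with this relation in view, these ranks are a description. Arntl had a negative r with 6 of the 7 genes Dbp, Per1, Per2, Per3, Nr1d1, Nr1d2 and Ciart, the exception being Per3 at 0.00. Cry1, also an E-box target, is not among these 7. Its r with them had a median of 0.12 (range -0.09 to 0.36), and its r with Arntl was -0.06. Npas2, whose repressors are those of Arntl, did not follow Arntl (r = -0.22) and was opposed to Per3 (r = -0.57).

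**Figure D4:**
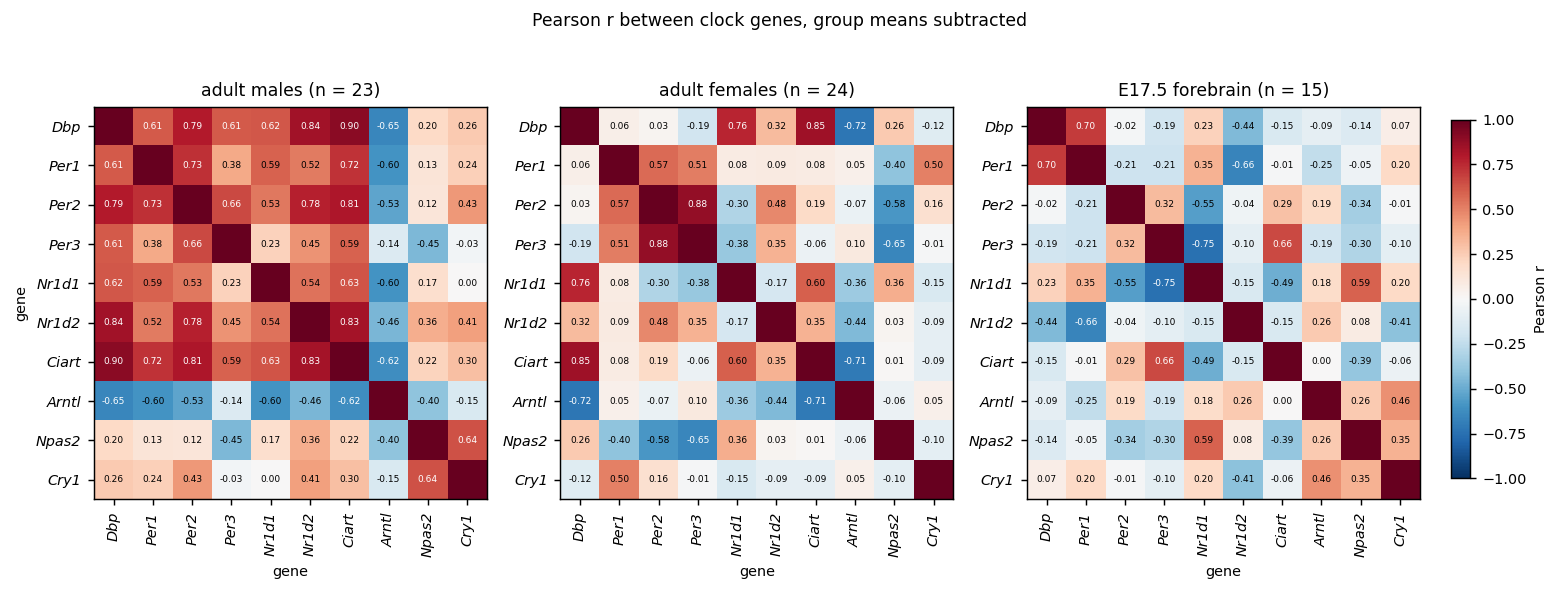
Pearson r between the members after subtraction of group means, in 23 adult males, 24 adult females and 15 embryos (red positive, blue negative, both axes list the genes). In males the 21 pairs of the first 7 genes are all positive, in females Per1, Per2 and Per3 form a block apart from Dbp, Nr1d1 and Ciart, and the embryos show neither pattern.

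The pattern took a different shape in each sex, although that difference was not tested. In the 23 males all 21 pairs among the 7 E-box targets other than Cry1 were positive (median r = 0.62, range 0.23 to 0.90). Arntl was negative with all 7 (median -0.60). Cry1 had a positive r with 6 of those 7 in males (median 0.26) and with 2 of them in females (median -0.09). In the 24 females 16 of the 21 pairs were positive (median 0.19, range -0.38 to 0.88). There Dbp stayed with Ciart (0.85) and Nr1d1 (0.76) and opposite to Arntl (-0.72), while Per2 stayed with Per3 (0.88) and Per1 (0.57) but had an r of 0.03 with Dbp and of -0.07 with Arntl. The female value of Dbp with Per2 depended on single libraries, being 0.29 without euploid B125 and -0.16 without euploid B85, and by group it was 0.46 in Ts65Dn, -0.05 in euploid and -0.31 in Ts65Dn;Brwd1+/- females. In males the r of Dbp with Per2 was 0.79, and 0.73 to 0.81 without single libraries, and with Per3 it was 0.61. Within single groups the r of Dbp with Arntl was -0.94 in 8 Ts65Dn females, -0.71 in 8 euploid females and 0.19 in 8 Ts65Dn;Brwd1+/- females, in which Dbp spanned the narrowest range, and -0.76 to -0.58 in the 3 male groups. Without B85, which goes against its sex label, the value in the other 7 euploid females was -0.28. Without single libraries it lay between -0.96 and -0.86 in Ts65Dn females and between -0.04 and 0.42 in Ts65Dn;Brwd1+/- females, the lowest of these without B136, which lacks trisomic dosage. Over all females, the r of Dbp with Arntl was -0.62 without B85. Without the 6 libraries against a label, the r of Dbp with Arntl over the remaining adults was -0.70 and of Dbp with Ciart 0.83. Among 43 animals with B identifiers the r of Dbp with Arntl was -0.63. The 4 animals with T identifiers are too few for a value.

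**Figure D5:**
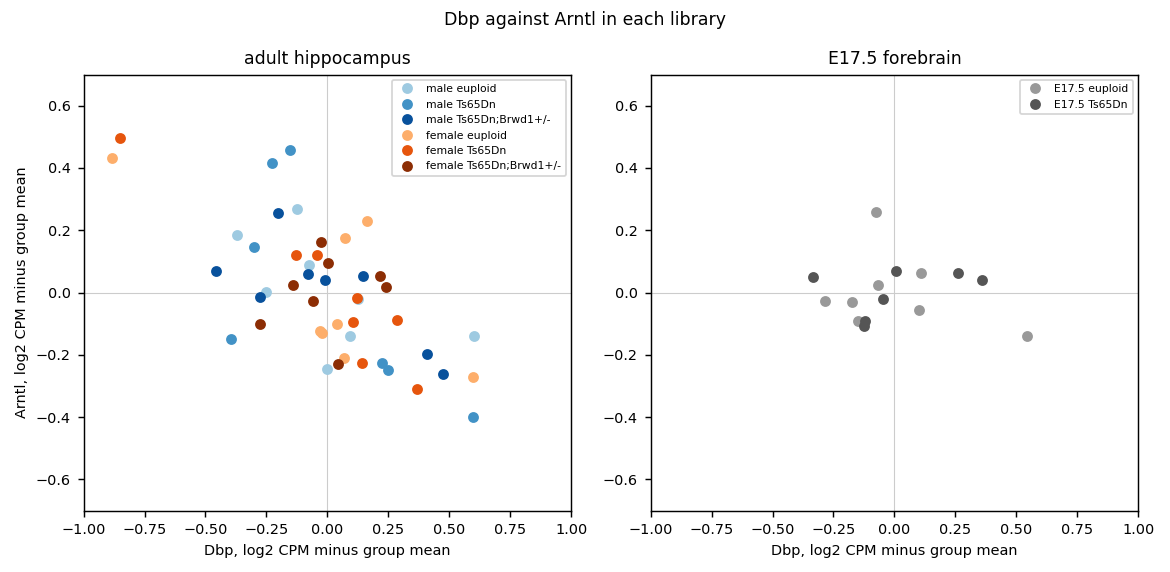
Arntl against Dbp in each library, both as log2 CPM minus the group mean, in adult hippocampus (left, 47 libraries in 6 groups) and E17.5 forebrain (right, 15 libraries in 2 groups), on the same axes. The adult points run from upper left, where Ts65Dn female T142 and euploid female B85 lie, to lower right, with r = -0.68, and the embryonic points show no such slope (r = -0.09).

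In the embryos the correlation of Dbp with Arntl lay near 0. Over 15 embryos, with genotype means subtracted, the r of Dbp with Arntl was -0.09 (permutation p = 0.747, adjusted over 45 pairs 0.934), and the Spearman value was 0.14 (permutation p = 0.639, adjusted 0.896). Without the 2 embryos farthest from the median of Dbp it was 0.20. The r of Dbp with Ciart, the closest pair of the adults, was -0.15 in the embryos (permutation p = 0.628, adjusted 0.883). Ciart had a mean of 0.85 log2 CPM in the embryos and 2.98 in the adults, and few reads were counted for it in the embryos. The within-group SD of Arntl was 0.102 in the embryos and 0.225 in the adults. That of Dbp was 0.249 and 0.332, and that of Ciart 0.318 and 0.377. The part of counting noise and of this narrower spread in the embryonic r values was not tested. Of the 45 pairs, 5 had a permutation p under 0.05 and 2 an adjusted p under 0.1. Those were Per3 with Nr1d1 (r = -0.75, permutation p = 0.00136, adjusted 0.0612, Spearman -0.79 with adjusted permutation p = 0.0702, and -0.67 without the 2 embryos farthest from the median of Per3) and Dbp with Per1 (r = 0.70, permutation p = 0.00361, adjusted 0.0812, Spearman 0.69 with adjusted permutation p = 0.192, and 0.60 without the 2 farthest for Dbp). Within the 2 numbers that the embryo titles carry, r was -0.69 for Per3 with Nr1d1 and 0.67 for Dbp with Per1. All permutation tests were 2-sided.

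Of 20 further genes of the clock, taken as a list, all were tested and 2 were called in any comparison, both in Ts65Dn vs euploid females. Fbxl21, which encodes an F-box protein that binds cryptochromes, was higher (log2 fold change 0.52, SE 0.14, adjusted p = 0.0634), and Usp2, a clock-controlled deubiquitinase gene, was lower (-0.22, SE 0.05, adjusted p = 0.0293). The median log2 fold change of the list in that contrast was -0.03, against -0.02 over all genes and -0.40 for the 10 members. In the embryos 0 of the 20 were called, with values from -0.17 to 0.67. Over the adult libraries, Nfil3, a repressor at D-boxes, was opposed to Dbp (r = -0.53, males -0.64, females -0.43), and Tef (r = 0.45, males 0.65, females 0.34), a relative of Dbp, went with it. Bhlhe41, which acts at E-boxes, had an r with Dbp of 0.48 over all adults, of 0.74 in males and of 0.13 in females. Clock, the partner of Arntl, had an r of 0.19 with Arntl.

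The genes outside the clock list whose pattern was most like that of Dbp were Tspan4 (r = 0.67), Cables1 (0.66), Lfng (0.66), Tsc22d3 (0.63), Ykt6 (0.62), Tsc22d1 (0.60), Herpud1 (0.59), Apip (0.58), Klf15 (0.58) and Camk1g (0.58), by Pearson r over 47 adult libraries. The most opposed were Rragd (-0.62), Maml3 (-0.62), Irak2 (-0.62), Cpd (-0.61), Rasa1 (-0.61), Rasa2 (-0.61), Map3k1 (-0.61), Lgr6 (-0.60), Igsf3 (-0.59) and Penk (-0.59). Tsc22d3 and Klf15 are known glucocorticoid-responsive genes, and Penk encodes the precursor of enkephalins. For Arntl the most alike were 2900092D14Rik (0.73), Gabrd (0.68), Sertad4, Ccdc9 and Sema7a (0.64 each), and Vash1, Cpne9, Car7, Plppr5 and Irak2 (0.63 each). The most opposed to Arntl were Tspan4 (-0.81), Dcaf12l1 (-0.67), Slc33a1 and Vegfd (-0.66 each), Rxra (-0.65), Slc2a1 (-0.64), Zfp503 and Pgrmc1 (-0.63 each), and Scml4 and Nkd2 (-0.62 each). Tspan4 thus headed both lists, alike to Dbp and opposed to Arntl, in males (0.58 and -0.89) and in females (0.74 and -0.76). Genes were not independent, and no test was attached to these values.

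A few genes of other lists were also called in Ts65Dn vs euploid females. Of 12 immediate early genes, which mark recent neuronal activity, all 12 had lower values in Ts65Dn than in euploid females (median log2 fold change -0.48), and 3 were called lower, with Fos at -0.94 (SE 0.23, adjusted p = 0.0366). Their summed level was 448.0 to 1260 CPM (median 810.0) in euploid, 505.2 to 654.4 CPM (median 639.6) in Ts65Dn and 700.1 to 1235 CPM (median 898.9) in Ts65Dn;Brwd1+/- females. Of 14 glucocorticoid-responsive genes, 3 were called lower, among them Hif3a (-1.16, SE 0.27, adjusted p = 0.0281), with a summed level of 544.4 to 783.8 CPM in euploid and 538.3 to 684.6 CPM in Ts65Dn females. Per1 itself responds to neuronal activity and to glucocorticoids. In Ts65Dn;Brwd1+/- vs Ts65Dn females all 12 immediate early genes had higher values (median log2 fold change 0.58), 0 of them called by edgeR and 12 at an unadjusted p under 0.05, as did 12 of the 14 glucocorticoid-responsive genes, with 0 called and 5 at an unadjusted p under 0.05. The mean of the immediate early genes had an r with Dbp of -0.06 over 47 libraries, 0.18 in males and -0.41 in females. The mean of the glucocorticoid list had an r with Dbp of 0.32, 0.54 in males and 0.10 in females. With Per1 the values over 47 libraries were 0.38 and 0.53. Euploid female B85 had the highest summed level of the immediate early genes among euploid females, and B125 the lowest. Choroid plexus markers, which belong to tissue next to the hippocampus, ranged from 179.5 to 8891 CPM in Ts65Dn females and from 180.5 to 9951 CPM in euploid females, with 0 of 12 called and an r of 0.10 with Dbp. The r of Dbp with the log2 of the total count was -0.18. Hippocampal markers summed to 768.2 to 1443 CPM over the adult libraries, with none of the 10 near 0, and 2 were called higher and 1 lower in Ts65Dn than in euploid females. Temperature-responsive and chaperone genes had 2 of 8 called higher and 1 lower. Astrocyte, oligodendrocyte, microglia and endothelial markers (6 each) and thalamic markers (7) had 0 called in edgeR, with 0, 0, 1, 2 and 1 of them at an unadjusted p under 0.05. The part of these measures in the difference of the clock genes was not tested.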

How the data were processed

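RNA-seq counts of 15 E17.5 forebrain and 47 adult hippocampus libraries were used. The authors mapped reads to mm10 with HISAT2, counted them per gene with featureCounts 2.0.1 and deposited raw counts, unnormalized, for 27179 genes. The members and gene lists were chosen with earlier results of these data known. Gene symbols and promoter windows came from RefSeq (25275 genes matched), exon lengths from GENCODE.

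Each sex, and the embryos, had a fit of its own in R 4.3.3 using the quasi-likelihood test of edgeR 4.0.16 (robust, TMM normalization), on genes that filterByExpr kept at a minimum count of 10, and p-values were adjusted over all of them (Benjamini-Hochberg, threshold 0.1). Sex comparisons used all 6 adult groups. Alternatives were DESeq2 1.42.0, 1 or 3 RUVr factors (computed from edgeR's deviance residuals), upper-quartile normalization, no filter, an adjusted p under 0.05, blocks for the embryos, and fits without single libraries or without those against a label; leaving out both kinds together, and correlations without single libraries, were added after seeing the data. Permutations (100000) were drawn within genotype. Scripts were tested on simulated data.

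Named genes were all members, other clock genes called anywhere, and the 10 most alike and 10 most opposed to Dbp and to Arntl among genes with a mean of at least 1 log2 CPM. Lists of immediate early, glucocorticoid-responsive, temperature-responsive and tissue or cell type marker genes were read as counts and summed levels. No 2 libraries of a group agreed within counting noise (chi-square per degree of freedom at least 8.66). Depth was 14863136 to 137059172 reads per library, and Ciart, the least abundant member, had the fewest.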

Additional observations from a re-analysis of the deposited data

Results flagged for a closer look

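In 80 combinations of a group and a member, a single library stood apart from the rest of its group in 7, where about 1 in 20 would by chance. The combinations are not independent, since members vary together and B85 and B122 each enter for more than 1 gene. The 7 can therefore not be read as an excess. Euploid female B85, one of the libraries against its sex label, was low for Dbp (5.36 log2 CPM, next 6.21) and for Ciart (2.23, next 3.26). Ts65Dn female T142 was low for Dbp (4.73, next 5.45). Euploid male B122 was high for Per2 (5.80, next 5.27) and Ciart (3.38, next 2.87), and it was also the highest of its group for Dbp, Per1, Per3, Nr1d1 and Nr1d2. Among the embryos, Ts65Dn embryo 6 was low for Per1 (5.08, next 5.70) and Ts65Dn embryo 7 was high for Ciart (1.23, next 0.88). In the edgeR interaction test of sex with Ts65Dn vs euploid, 0 members had an adjusted p under 0.1 and 6 an unadjusted p under 0.05, and 2 and 4 members were called with 1 and 3 RUVr factors.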

How the results depend on the processing

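The count of members called in Ts65Dn vs euploid females, 7, was 5 at an adjusted p under 0.05, 6 without the library against its sex label, and 5 to 7 without single libraries. In Ts65Dn;Brwd1+/- vs Ts65Dn females the count of 0 became 3 with DESeq2, 3 with 1 RUVr factor, 6 and 7 with 3 RUVr factors in edgeR and DESeq2, 2 without the library against its sex label, 2 without either kind of library against a label, and 0 to 2 without single libraries, the 2 arising without euploid female B85. For the interaction of sex with Ts65Dn vs euploid, 0 became 1 with DESeq2, 2 with 1 RUVr factor and 4 and 5 with 3 RUVr factors in edgeR and DESeq2. With 3 RUVr factors, 1 member was called by either tool in the embryos (Nr1d1), in Ts65Dn vs euploid males (Npas2) and in Ts65Dn;Brwd1+/- vs euploid females (Per3), the last also 0 to 1 without single libraries. The other comparisons had 0 members called in each alternative. The cause was not tested. Embryos shared replicate numbers but same-numbered embryos did not deviate together (r from -0.133 to 0.23 over 7 pairs), and with the replicate block 0 members were called. The correlation of Dbp and Arntl, adults, pooled over groups or over the groups of a sex or of euploid animals, lay between -0.723 and -0.601, single-library omissions aside, whereas within single groups it ran from -0.94 to 0.19. With single libraries left out, the pooled value ran from -0.78 to -0.6 in females and from -0.73 to -0.57 in males. The embryonic value changed sign, to 0.136 by rank, 0.204 without the 2 embryos farthest from the median of Dbp and 0.018 within title numbers. Of 950 refitted fold changes of members, library omissions aside, 882 kept direction and side of the threshold, 41 passed it newly, 2 no longer passed it, 25 changed sign with no call in either fit, and 0 changed sign with a call.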
